A study of Drosophila melanogaster with 18 samples.

Results

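The comparison described here is female fru P1 TRAP against female total mRNA, at 48 hr after puparium formation (APF), which comprised 8 of the 18 libraries of the series. The libraries were taken by their labels, as 4 female TRAP libraries (replicates 2, 3, 4 and 5) and the 4 female total mRNA libraries of the same numbers, each pair prepared from the same lysate. The other 10 libraries, from males, were used only where a sex difference is stated. TRAP (translating ribosome affinity purification) recovers mRNA bound to a GFP-tagged ribosomal protein, RpL10A, while total mRNA is the mRNA of the whole animal. All libraries came from 1 genotype, with fru P1-Gal4/+ as the driver and P[w+mC, UAS-Gal4] opposite P[w+mC, UAS-GFP::RpL10A] on the other chromosome pair in a w background, so TRAP and total mRNA differ by purification and not by genotype. Each lysate came from a pool of sex-sorted whole pupae that were kept under alternating light and dark. In such bulk samples, a higher share of fru P1 cells that make a transcript cannot be told apart from more of that transcript per cell.

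In Drosophila, the P1 promoter of fru drives sex-specifically spliced transcripts of a BTB zinc finger transcription factor in subsets of neurons that underlie reproductive behaviours. In females these transcripts are spliced so that no male-specific protein is made, although the same promoter is active. The tag is made wherever the Gal4 driver is active, in neurons and in any other cell type, and UAS-Gal4 raises Gal4 further in those cells. At mid-metamorphosis neurons extend processes and begin to form synapses, larval fat body cells persist as free cells in the body cavity, and the epidermis secretes adult cuticle.

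Exon-level counts were summed over non-overlapping exon records for each of 17753 genes. Library totals were 34057519 to 67491630 counts in female TRAP and 24901633 to 31870712 counts in female total mRNA. Pearson correlations of log2 counts per 1e6 (CPM) between replicates, taken across genes, were 0.979 to 0.988 in TRAP and 0.955 to 0.994 in total mRNA. Of the 17753 genes, 10838 reached 1 CPM in at least 4 of the 8 libraries and were tested. A gene can pass this filter through its TRAP libraries alone, so the counts of low-level families below cover the tested members only. Reads in a record that overlaps another gene cannot be assigned to either gene. Of the genes described below, this touches RpL10Ab, dsx, elav and repo among the markers, and Rbp9, VGlut, Vmat, Irk3, GluRIIA, SIFa, ETH, Lgr4, SPR, robo2, Mical, brat, br, lola, sad and ppk29 among neuronal and regulatory genes. It also touches Fbp2, apolpp, Obp99c, crq, trol, Tig, sls, Msp300, Strn-Mlck, ATPsynC, RpL22, eIF4G2, eIF4EHP, vas, Sxl, CG10257, CycE, sca and sv, and further cases are named where they occur.

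Female lysates 2, 3 and 4 held reads of genes of the male germline, and lysate 5 held far fewer. Over 43 such genes (protamines, Mst genes, sperm leucyl-aminopeptidases and others), the summed level in RPM (reads per 1e6 gene-level reads) was 144, 216 and 41.7 in TRAP of lysates 2, 3 and 5, and 275, 439 and 28.1 in total mRNA of the same lysates, with lysate 4 close to lysate 2. In males this sum ranged between 10020 and 27264 RPM for TRAP and between 24609 and 29657 RPM for total mRNA. S-Lap7, a sperm leucyl-aminopeptidase, had 246, 491, 153 and 9 reads in TRAP of lysates 2 to 5, and 422, 948, 532 and 0 reads in total mRNA. Lysate 5 is therefore given on its own wherever the male germline list is described. The part of these reads in the other results was not tested.

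The gene of the driver, fru, was taken first, summed over 19 records. This sum mixes transcripts of the P1 promoter with those of other fru promoters, so it does not check the driver itself. The paper reports that exons specific to fru P1 were higher in TRAP at this stage but did not pass its threshold. Other fru exons did pass. Transcripts of fru (3R 18414273–18545586, minus strand, build dm6) stood at 408, 271, 448 and 373 CPM in TRAP, against 164, 151, 116 and 97.6 CPM in total mRNA, for lysates 2 to 5. Every TRAP library was above every total mRNA library, and the log2 fold change was 1.51 (SE 0.19, adjusted p = 0.000125, edgeR quasi-likelihood test). The smallest ratio, 0.84 on the log2 scale, was in lysate 3 and the largest, 1.95, in lysate 4. With 18433 nt of summed exons, fru is among the genes of 8000 nt and over. Their median log2 fold change was 0.61, and 64.8% of them were higher. The gene dsx, which encodes the other transcription factor at the end of the sex hierarchy, had 38.5, 31.7, 41.1 and 36.4 CPM in TRAP against 34.1, 31.3, 30.7 and 29.8 CPM in total mRNA. These groups overlapped and dsx did not pass the test (0.23, SE 0.10, adjusted p = 0.0696). For dsx the value depended on which exons were counted, since its 3′ record alone gave 1.53 (adjusted p = 3.39e-06) and a correction for exonic length gave −0.27 (adjusted p = 0.0185).

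The neuronal markers elav and nSyb were higher in TRAP, and the glial marker repo and the muscle marker Mhc were lower. Other glial and muscle genes included some that were higher, such as Gs2 and sls, as described below. The neuronal RNA-binding protein gene elav had 658, 249, 337 and 278 CPM in TRAP and 132, 133, 114 and 108 CPM in total mRNA (log2 fold change 1.54, SE 0.20). Lysate 2 was the highest TRAP library by a wide margin. The synaptic vesicle gene nSyb rose less, with 188, 139, 126 and 139 CPM in TRAP against 113, 98.7, 108 and 113 CPM in total mRNA (0.44, SE 0.12, adjusted p = 0.00987). With only records free of overlap within the gene, nSyb was at −0.05 (adjusted p = 0.856, same test). Its call was also lost in a fit of all 18 libraries (0.23, adjusted p = 0.13). In that fit the median shift over all genes was −0.21. The 3′ record of nSyb alone gave 0.52 (adjusted p = 0.0031, same test). The glial factor gene repo fell, with 11.9, 10.1, 9.61 and 10.5 CPM in TRAP and 16.8, 17.7, 14.5 and 15.8 CPM in total mRNA (−0.62, SE 0.10). The muscle myosin gene Mhc also fell, to between 2134 and 2935 CPM in TRAP, against 3668 to 4233 CPM in total mRNA (−0.64, SE 0.13, adjusted p = 0.00238). Transcripts of repo and Mhc were still well above the 1 CPM minimum in TRAP, so reads of glial and muscle genes remained in the TRAP libraries. RpL10Ab, the endogenous gene of the tagged protein, had 1766, 2087, 1631 and 1758 CPM in TRAP against 2581, 2440, 2318 and 2434 CPM in total mRNA (−0.44, SE 0.12, adjusted p = 0.0125). Reads of the tagged transgene and of RpL10Ab cannot be told apart in these counts, and the value lost its call without lysate 4 (adjusted p = 0.0655), without lysate 5 (adjusted p = 0.0645) and with a correction for exonic length (−0.17, adjusted p = 0.159). It was 0.18 (adjusted p = 0.561) when only records free of overlap within the gene were summed, and −0.40 (adjusted p = 0.0191) with the 3′ record alone.

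**Figure D1:**
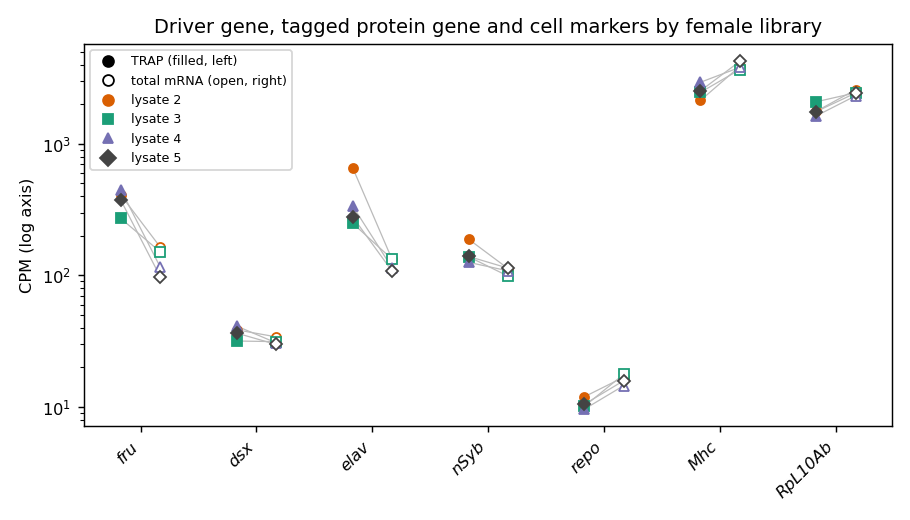
Levels of fru, dsx, elav, nSyb, repo, Mhc and RpL10Ab in each female library, in CPM on a log axis; filled symbols on the left of each gene are TRAP, open symbols on the right are total mRNA, and grey lines join libraries of the same lysate. The lines fall to the right for fru, elav and nSyb and climb to the right for repo, Mhc and RpL10Ab, while those of dsx are nearly level.

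Across all tested genes, 3123 were higher in TRAP (28.8%) and 3090 were lower (28.5%), at an adjusted p under 0.05. With a change of at least 2-fold as well, 1253 genes were higher (11.6%) and 567 were lower (5.23%). The median log2 fold change of all genes was −0.03, and 6720 genes had an unadjusted p under 0.05. The libraries of TRAP and total mRNA did not overlap for 5553 genes (51.2% of those tested). The upper end of the distribution reached much farther than the lower end, to 7.12 against −2.14 among the genes eligible to be named.

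The genes with the highest TRAP ratios included genes of the fat body, immune defence and hormone metabolism beside an insulin-like peptide gene. CG14118 (3L 12892658–12894758), a gene given here without a role, led with 497, 946, 997 and 1109 CPM in TRAP against 6.65, 4.75, 6.10 and 7.33 CPM in total mRNA, a log2 ratio of 7.12 (SE 0.26, adjusted p = 1.3e-07). Next was Nepl5, annotated by its name as neprilysin-like, at 19.6, 41.8, 33.9 and 42.2 CPM in TRAP and 0.143 to 0.611 CPM in total mRNA, which was 3 to 13 reads per library (6.80, SE 0.22). The antimicrobial peptide gene AttD had 32.5, 58.0, 55.5 and 74.7 CPM in TRAP, against 0.671, 0.376, 0.571 and 0.375 CPM in total mRNA (6.78, SE 0.22). In each of these genes lysate 2 was the lowest TRAP library.

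The rest of the 12 highest genes ran between 5.76 and 6.31 on the log2 scale. They were CG5171, CG8157, CG34166, Ilp3, CG42586, CG31775, lncRNA:CR45936, Fbp1 and Jhe. Fbp1, which encodes the fat body receptor for larval serum proteins, reached 3796, 7508, 6300 and 6707 CPM in TRAP against 145, 89.6, 106 and 103 CPM in total mRNA (5.76, SE 0.29). Jhe, the juvenile hormone esterase gene, had 101, 219, 218 and 207 CPM in TRAP and 3.05 to 3.81 CPM in total mRNA. The tandem copies CG42586 and CG31775 had equal counts in all 8 libraries, so their reads cannot be assigned to either. TRAP of lysate 2 was the lowest of the 4 TRAP libraries for 11 of the 12 genes, and Ilp3, which encodes an insulin-like peptide of the brain, was the exception, with 366, 216, 88.6 and 221 CPM in TRAP against 3.16 to 3.90 CPM in total mRNA.

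**Figure D2:**
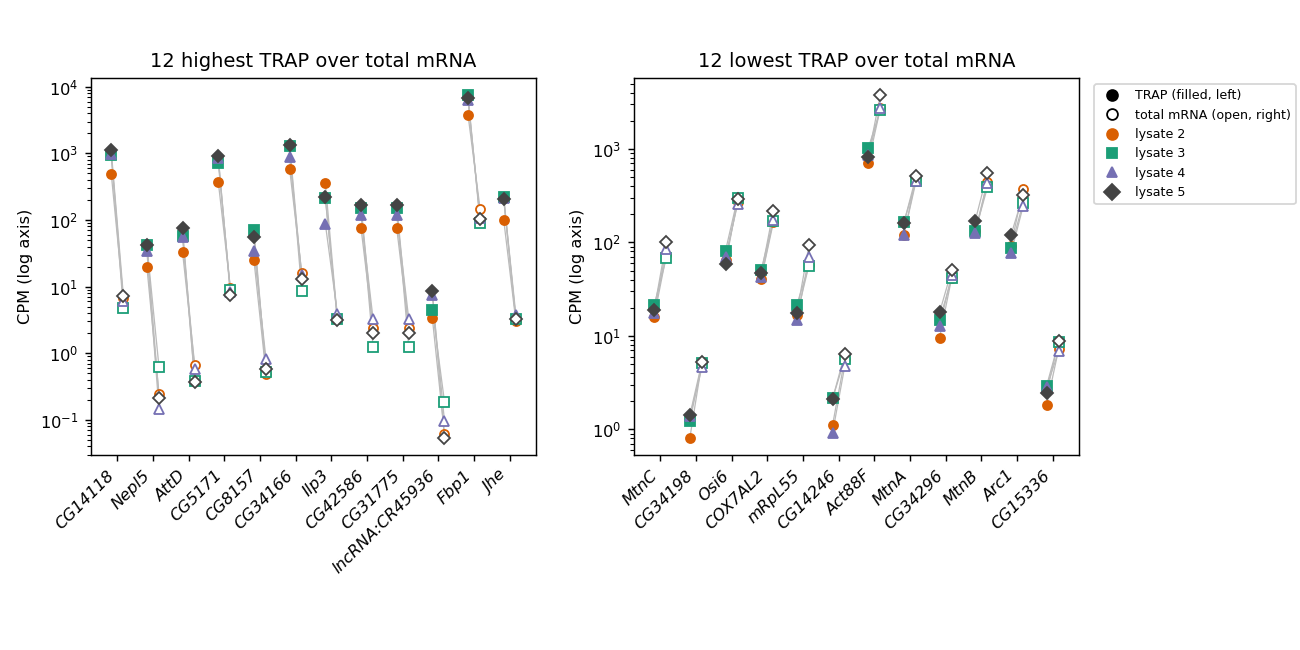
Levels of the 12 genes with the highest and the 12 with the lowest TRAP ratio, in CPM on log axes, with TRAP filled on the left and total mRNA open on the right of each gene. Fold changes were 5.76 to 7.12 on the log2 scale at the upper end and −2.14 to −1.67 at the lower end, and orange circles (lysate 2) lie lowest among the TRAP points of 11 of the 12 highest genes.

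Genes of the fat body were higher in TRAP for the most part. Of 23 tested genes of fat body storage and lipid handling, 15 were higher and 2 were lower, with 11 higher by at least 2-fold and a median of 0.96 (all genes −0.03). Their summed level averaged 21180 RPM in TRAP and 3307 in total mRNA. Genes of stored proteins stood above those of lipid synthesis in the list. The larval serum proteins are the amino acid store that the larval fat body takes back up before metamorphosis. Lsp2, whose record overlaps another gene, had 2242, 4543, 4423 and 4313 CPM in TRAP against 142, 113, 114 and 140 CPM in total mRNA (4.89, SE 0.25). Lsp1alpha, Lsp1beta and Lsp1gamma had fold changes of 5.07, 4.35 and 4.67 on the log2 scale, and Fbp2, a fat body protein gene, 5.64.

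At the other end of the list, ACC, which encodes acetyl-CoA carboxylase of fatty acid synthesis, was lower (−0.49, SE 0.10), as was the lipase gene bmm (−0.33). The lipid carrier gene apolpp rose by less than the storage genes, with 2386, 3303, 3662 and 3604 CPM in TRAP and 1638, 1617, 1604 and 1493 CPM in total mRNA (1.01, SE 0.15). All TRAP libraries were above all total mRNA libraries, and lysate 2 was again the lowest of the TRAP libraries.

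Immune genes had the highest list median of all. Of 27 tested genes for recognition proteins and antimicrobial peptides, 21 were higher and 2 lower, 19 of them by at least 2-fold, and the median was 2.16. The summed level of the list was 890.9 RPM in TRAP and 404.3 in total mRNA. Def, the defensin gene, averaged 34.5 ± 10.1 CPM in TRAP and 1.28 ± 0.405 CPM in total mRNA (SD, n = 4 each; log2 fold change 4.76, SE 0.20). Drs, the antifungal drosomycin gene, had 67.8, 142, 97.6 and 117 CPM in TRAP and 14.2, 14.3, 4.05 and 5.99 CPM in total mRNA (3.56, SE 0.33). Among the recognition genes, PGRP-SC2 was at 3.64, PGRP-LC at 0.56 (SE 0.12) and PGRP-LD, which has records that overlap another gene, at −0.45 (SE 0.10). Lysate 2 had the lowest list median, 1.11, against 2.15 to 2.43 in the other lysates.

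Neuronal genes were higher in TRAP as a rule. Among 15 pan-neuronal genes, 14 were higher and none was lower, 11 by at least 2-fold, with a median of 1.29. With a correction for exonic length 12 were higher and 2 lower (median 0.97). The ELAV-family gene fne had 4218, 2593, 2846 and 2989 CPM in TRAP against 1681, 1546, 1123 and 947 CPM in total mRNA (1.27, SE 0.16). The highest was cac, which encodes the presynaptic calcium channel, with 857, 624, 994 and 820 CPM in TRAP and 170, 139, 116 and 86.3 CPM in total mRNA (2.71, SE 0.20). Rbp9, another ELAV-family gene, was the exception, at 351 to 417 CPM in TRAP and 404 to 452 CPM in total mRNA (−0.10, adjusted p = 0.486).

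Genes of the synapse followed the same direction. Of 30 genes of synaptic vesicles and active zones, 28 were higher and none lower, with a median of 0.84. With the length correction 22 were higher and none lower (median 0.47). Sap47, a synapse-associated protein gene, had 737, 513, 548 and 575 CPM in TRAP and 398, 363, 309 and 289 CPM in total mRNA (0.80, SE 0.13). The active zone gene Rim was the highest at 1.87 (SE 0.16), followed by Syt1, the calcium sensor of vesicle release, at 1.68. Rop, which encodes the Sec1 protein of vesicle fusion, overlapped between the groups (0.16, adjusted p = 0.274). The genes stnA and stnB share an mRNA, and both stood at 0.45.

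Ion channel genes were among the most enriched neuronal groups. Of 37 genes of voltage-gated and potassium channels, 33 were higher and 1 was lower, 24 by at least 2-fold, with a median of 1.27. With the length correction 32 were higher and 1 lower (median 0.85). Sh, which encodes the A-type potassium channel, had 1466, 1071, 2106 and 1679 CPM in TRAP against 316, 257, 193 and 153 CPM in total mRNA (2.79, SE 0.26). The sodium channel gene para followed with 1888, 1310, 2136 and 1860 CPM in TRAP and 396, 327, 267 and 214 CPM in total mRNA (2.59, SE 0.20). Irk3, an inward rectifier gene at 3.38 to 4.46 CPM in TRAP and 3.91 to 6.48 CPM in total mRNA, was the member that fell (−0.52, SE 0.18, adjusted p = 0.0281).

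Most genes for making and transporting neurotransmitters were higher in TRAP. Of 15 genes of synthesis and transport, 12 were higher and none lower (median 0.84). Choline acetyltransferase, ChAT, had 137, 94.7, 91.4 and 116 CPM in TRAP against 49.7, 49.5, 39.1 and 34.8 CPM in total mRNA (1.34, SE 0.13). ChAT shares a first exon with the vesicular acetylcholine transporter gene VAChT (1.07, SE 0.11), and so some reads cannot be told apart. The vesicular monoamine transporter gene Vmat was at 1.35 (SE 0.12) and Gad1, for GABA synthesis, at 0.61 (SE 0.12). The vesicular glutamate transporter gene VGlut had 68.0, 53.2, 51.8 and 60.5 CPM in TRAP and 55.9, 51.0, 56.6 and 53.7 CPM in total mRNA, and its groups overlapped (0.10, adjusted p = 0.42), as did those of the tyrosine hydroxylase gene ple (0.06, adjusted p = 0.68). Whether these genes differ from ChAT in their TRAP ratio was not tested.

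Among transmitter receptors, 28 of 35 tested genes were higher and 1 was lower, with a median of 0.98. The subunit genes nAChRalpha6 and nAChRalpha7 of nicotinic receptors were at 2.44 (SE 0.21) and 2.43 (SE 0.19), and the GABA receptor subunit gene Rdl had 1818, 1177, 1713 and 1689 CPM in TRAP against 481, 420, 338 and 253 CPM in total mRNA (2.12, SE 0.20). GluRIIA, a subunit gene of the muscle glutamate receptor, had 4.33 to 6.99 CPM in TRAP and 6.57 to 9.70 CPM in total mRNA (−0.46, adjusted p = 0.0575). Of 17 monoamine receptor genes, 16 were higher and none lower, within a narrow span of 0.42 to 1.25 and a median of 1.07. Its lower end was the serotonin receptor gene 5-HT2A, the single member that did not pass (adjusted p = 0.0609), and its upper end the octopamine receptor gene Octbeta1R (SE 0.12).

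Neuropeptide genes were spread widely. Of 40 tested precursor genes, 18 were higher, 3 lower and 19 not called, with a median of 0.37. The insulin-like peptide genes of the brain stood apart. Ilp2 had 76.8, 51.8, 18.3 and 55.0 CPM in TRAP against 1.04, 1.08, 0.667 and 1.12 CPM in total mRNA (5.61, SE 0.18, adjusted p = 7.84e-08). Ilp5 had 1.33 to 4.77 CPM in TRAP, and its total mRNA libraries held 1 or 2 reads each. Ilp2, Ilp3 and Ilp5 shared an order of the TRAP libraries in which lysate 2 was the highest and lysate 4 the lowest.

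The prothoracicotropic hormone gene Ptth, active in the brain cells that time steroid release, had 22.9, 41.8, 40.3 and 53.2 CPM in TRAP against 1.34 to 1.88 CPM in total mRNA (4.60, SE 0.17), and a record of Ptth overlaps another gene. The peptide gene amn had 84, 48, 74 and 106 reads in TRAP and 0 reads in every total mRNA library. With a floor of 3 counts in each total mRNA library, it was at least 11.8-fold higher in every lysate, and it overlaps another gene, so the reads are of uncertain origin. SIFa (−1.10, SE 0.22), the bursicon subunit gene Pburs (−0.91) and ETH (−0.67), the ecdysis-triggering hormone gene, were lower in TRAP. SIFa averaged 2.64 ± 0.610 CPM in TRAP and 5.66 ± 1.62 CPM in total mRNA (SD, n = 4 each).

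Neuropeptide receptor genes were higher in 25 of 35 tested cases and lower in none, with a median of 0.71, and in 15 cases without lysate 4. Pdfr, the receptor gene for the clock peptide PDF, was far above the rest at 102, 165, 212 and 210 CPM in TRAP against 10.5, 9.69, 8.43 and 9.95 CPM in total mRNA (4.11, SE 0.21, adjusted p = 9.62e-07). Its TRAP libraries had lysate 2 as the lowest. The next receptor gene was Lgr4 at 2.26 (SE 0.20). AkhR, whose product receives adipokinetic hormone in fat body cells, was at 0.85 (SE 0.11). SPR, which encodes the receptor through which females respond to sex peptide after mating, had 22.7, 17.2, 26.6 and 22.1 CPM in TRAP against 6.53 to 11.8 CPM in total mRNA (1.25, SE 0.19, adjusted p = 0.000383).

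Cell surface genes of wiring rose as families. Of 31 tested genes of the dpr and DIP immunoglobulin families, whose members bind one another across synaptic partners, 30 were higher and none lower (median 0.80). The single member not called was DIP-lambda (0.27, adjusted p = 0.279). Among the most read members, dpr9 had 172, 112, 127 and 120 CPM in TRAP and 61.9, 59.7, 44.1 and 34.5 CPM in total mRNA (1.42, SE 0.14), and dpr1 was at 1.39 (SE 0.13). DIP-alpha was the highest (3.78, SE 0.35), although it has records that overlap another gene, and its levels were uneven, at 270, 53.0, 43.5 and 60.8 CPM in TRAP against 4.55 to 6.41 CPM in total mRNA.

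Of 22 genes of the beat and side families, 21 were higher and none lower, with a median of 0.96. Axon guidance genes were mixed, with 30 of 47 higher and 3 lower (median 0.59), or 21 higher and 9 lower with the length correction (median 0.21). Mical, an actin regulator downstream of plexins, had 1420, 1645, 2083 and 2139 CPM in TRAP against 571, 516, 586 and 552 CPM in total mRNA (1.69, SE 0.14), while Sema5c (−0.39), robo2 (−0.31) and Ptp69D (−0.26) were lower.

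Neuronal RNA-binding protein genes were higher in 15 of 21 cases and lower in none (median 1.19), led by the translational repressor gene brat at 1.80 (SE 0.19). With the length correction 12 were higher and 5 lower (median 0.56). Of 46 homeodomain genes 14 were higher, a share near the 28.8% of all genes, and 3 were lower (median 0.28). Of 15 BTB zinc finger genes 11 were higher and 1 lower (median 0.60). With the length correction the homeodomain median was 0.09 (10 higher, 7 lower) and the BTB median 0.15 (7 higher, 2 lower). The homeodomain genes onecut (1.84, SE 0.18), which marks neurons, and the POU gene acj6 (1.47, SE 0.15) led the homeodomain list. In the BTB list, br had 176, 78.7, 77.9 and 105 CPM in TRAP against 22.3, 19.8, 13.9 and 15.9 CPM in total mRNA (2.55, SE 0.16), and lola and chinmo were at 1.74 and 1.62. Only ken was lower in that list (−0.52, SE 0.10). Of 21 genes of the ecdysone pathway, 11 were higher and 3 lower, among them EcR, the ecdysone receptor gene, at 1.05 (SE 0.16), and sad, a gene of ecdysteroid synthesis, at −0.95 (SE 0.11). The median of that list, 0.32, was −0.01 once exonic length was corrected for (8 higher, 5 lower), and without lysate 4 there were 7 higher.

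Sensory genes were mostly too low to test. Of 215 odorant, gustatory, ionotropic and ppk receptor genes, 30 passed the filter, some through their TRAP libraries alone, and of these 17 were higher and none lower. The filter favours higher calls in such a list, and without it 40 of 201 were higher and none lower. Orco, the odorant co-receptor gene, had 1.35, 1.05, 1.93 and 1.53 CPM in TRAP against 0.366, 0.517, 0.286 and 0.214 CPM in total mRNA (2.05, SE 0.40). Of the ppk channel genes that mark pheromone-sensing gustatory neurons, ppk29 was higher (1.39, SE 0.22) while ppk23 overlapped between the groups (0.65, adjusted p = 0.198). The highest member, Ir54a (6.12), overlaps another gene, and its value is uncertain. Neighbouring genes Gr64b and Gr64c had equal values, as did Gr64d and Gr64e, which share records. Among 24 cilia genes 13 were higher and none lower, with a median of 0.71.

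Odorant-binding protein genes had no common direction, with 3 higher and 4 lower of 14 tested genes. Obp99b had 1724, 3575, 2779 and 3291 CPM in TRAP against 72.3, 50.7, 58.6 and 74.7 CPM in total mRNA (5.44, SE 0.26), with lysate 2 the lowest as in Fbp1, Lsp2 and apolpp. Its chromosomal neighbour Obp99c was at 1470 to 2586 CPM in TRAP and 2013 to 2543 CPM in total mRNA (−0.11, adjusted p = 0.549).

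Glial and blood cell lists held more genes lower than higher in TRAP. Of 13 tested glial genes 6 were lower and 1 was higher (median −0.23). The astrocyte gene alrm averaged 16.4 ± 1.48 CPM in TRAP and 36.4 ± 1.51 CPM in total mRNA (SD, n = 4 each; log2 fold change −1.15, SE 0.09), and the glutamate transporter gene Eaat1 was at −0.58. Gs2, a glutamine synthetase gene, was the exception, at 235, 402, 432 and 466 CPM in TRAP and 42.1, 38.9, 42.0 and 47.4 CPM in total mRNA (3.13, SE 0.17), again with lysate 2 as the lowest TRAP library. Of 19 hemocyte and basement membrane genes 9 were lower and 4 higher, namely crq (1.07), trol (0.87), Tig (0.61) and SPARC (0.40). With the length correction 14 were lower and 2 higher. The hemocyte marker Hml had 1.43 to 2.67 CPM in TRAP and 1.55 to 3.05 CPM in total mRNA (−0.34, adjusted p = 0.246).

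More muscle genes were lower than higher in TRAP. Of 29 sarcomere genes 17 were lower and 4 higher, with a median of −0.60. With the length correction 23 were lower and 1 higher (median −0.75). The myosin light chain gene Mlc2 had 1900, 2473, 2107 and 2153 CPM in TRAP against 6196, 5766, 5970 and 7186 CPM in total mRNA (−1.54, SE 0.14), and the actin gene Act88F was at −1.79 (SE 0.16). The 4 higher genes were sls, bt, Msp300 and Strn-Mlck, while Obsc, which like sls encodes a giant protein, was not called (−0.13). The gene sls, related to titin and with 58996 nt of summed exons, had 5900, 3352, 7362 and 5958 CPM in TRAP against 1028 to 1527 CPM in total mRNA (2.12, SE 0.20), and bt and Msp300 were both at 1.13 (SE 0.18).

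Genes of ribosomes and of energy metabolism were lower in TRAP. All 72 mitochondrial ribosomal protein genes tested were lower, 44 of them by at least 2-fold, with a median of −1.08. Of 77 genes of oxidative phosphorylation 70 were lower and none higher, 58 by at least 2-fold, and their median, −1.17, was the lowest of all lists. The ATP synthase gene ATPsynC had 2408, 3043, 2389 and 2682 CPM in TRAP against 5490, 5444, 5651 and 6173 CPM in total mRNA (−1.12, SE 0.13). The summed level of this list was 16390 RPM in TRAP and 36145 in total mRNA. ND-49, a complex I gene, was at 193 to 219 CPM in TRAP and 188 to 234 CPM in total mRNA (0.05, adjusted p = 0.725).

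Cytoplasmic ribosomal protein genes were lower in 84 of 87 cases and higher in none, although only 8 fell by at least 2-fold (median −0.73). With the length correction 69 were lower and none higher (median −0.44). The whole list made up 125688 RPM in TRAP against 199617 in total mRNA. RpL27A had 2490, 3000, 2814 and 2866 CPM in TRAP against 4847, 4647, 4534 and 4982 CPM in total mRNA (−0.77, SE 0.12). RpL22 (−0.03), RpL5 (−0.24) and RpL15 (−0.28) were the 3 that did not pass. Of 12 glycolytic genes 10 were lower, with Gapdh1 at −1.20 (SE 0.15) and Tpi at −1.42 (SE 0.16). Translation factors were lower in 33 of 48 cases and higher in 3, namely eIF4G2 (1.39), eIF4EHP (1.05) and eIF4H1 (0.47), and tRNA synthetases were lower in 22 of 33 cases and higher in 1.

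Proteasome genes had no common direction in the main fit, with 13 of 37 higher and 5 lower (median 0.06). The counts moved both ways with the setting. They were 7 higher and 2 lower without lysate 4, and 8 higher without lysate 3. With the length correction 17 were higher and 2 lower (median 0.26). Of 30 chaperone genes 17 were lower and 7 higher, and 10 were lower without lysate 4. The small heat shock gene Hsp23 was the highest of the chaperones, at 1048, 1896, 1624 and 1874 CPM in TRAP and 234, 335, 242 and 383 CPM in total mRNA (2.43, SE 0.14). The near-identical genes Hsp70Aa and Hsp70Ab, at 1.70 and 1.71, share reads and are uncertain as separate genes.

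Epidermal lists held more genes lower than higher in TRAP. Of 73 tested genes of cuticle protein families (138 in the tables), 32 were lower and 7 higher, with a median of −0.26. Without lysate 5, 18 were lower, and with the length correction 24 were lower and 16 higher (median −0.04). The abundant cuticle gene Vajk4 had 17444, 16699, 15702 and 15773 CPM in TRAP against 21671, 19551, 23053 and 21559 CPM in total mRNA (−0.39, SE 0.13, adjusted p = 0.0259). Cpr49Ac stood apart at 105, 198, 167 and 196 CPM in TRAP and a mean of 7.95 ± 3.84 CPM in total mRNA (SD, n = 4; log2 fold change 4.44, SE 0.33). Of 29 Osiris and zona pellucida genes 13 were lower and 2 higher, and Osi7 was at −1.27 (SE 0.12). Osi6 (−2.03, SE 0.12) had 0.76 (adjusted p = 0.16) when only records free of overlap within the gene were summed, so its value rests on records that overlap each other.

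The lowest ratios beside Osi6 included the metallothionein genes MtnA (−1.76), MtnB (−1.70) and MtnC (−2.14), which encode small metal-binding proteins. MtnC had 16.0, 21.4, 17.6 and 19.0 CPM in TRAP against 73.1, 68.0, 86.0 and 102 CPM in total mRNA (SE 0.13, adjusted p = 2.5e-06). Arc1, which encodes a capsid-forming protein of neurons and other cells, had 91.6, 87.2, 76.6 and 120 CPM in TRAP against 373, 264, 243 and 320 CPM in total mRNA (−1.68, SE 0.13). The 12 lowest genes were COX7AL2, mRpL55, Act88F, CG34198, CG14246, CG34296 and CG15336 besides these.

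Of 29 tested germ cell genes 8 were lower, a share near the 28.5% of all genes, and 2 were higher (median −0.11). The germ cell helicase gene vas had 3.32, 1.68, 2.94 and 2.61 CPM in TRAP against 5.25, 4.00, 5.00 and 7.17 CPM in total mRNA (−1.04, SE 0.19). In the male germline list 19 of 27 tested genes were lower and none higher, with medians of −0.95, −1.07 and −1.02 in lysates 2, 3 and 4. This count rested on the fit, since none was lower without the replicate block or with the exact test, 10 were lower with DESeq2, 9 without lysate 3 (with 1 higher) and 12 without lysate 4. In lysate 5 alone the median was 0.40, where 13 of the 27 genes had no reads in total mRNA. The translation factor gene eIF4H2 had few reads in the same library, at 0.406, 1.09, 0.644 and 0.18 CPM in TRAP and 2.75, 3.06, 2.52 and 0 CPM in total mRNA.

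**Figure D3:**
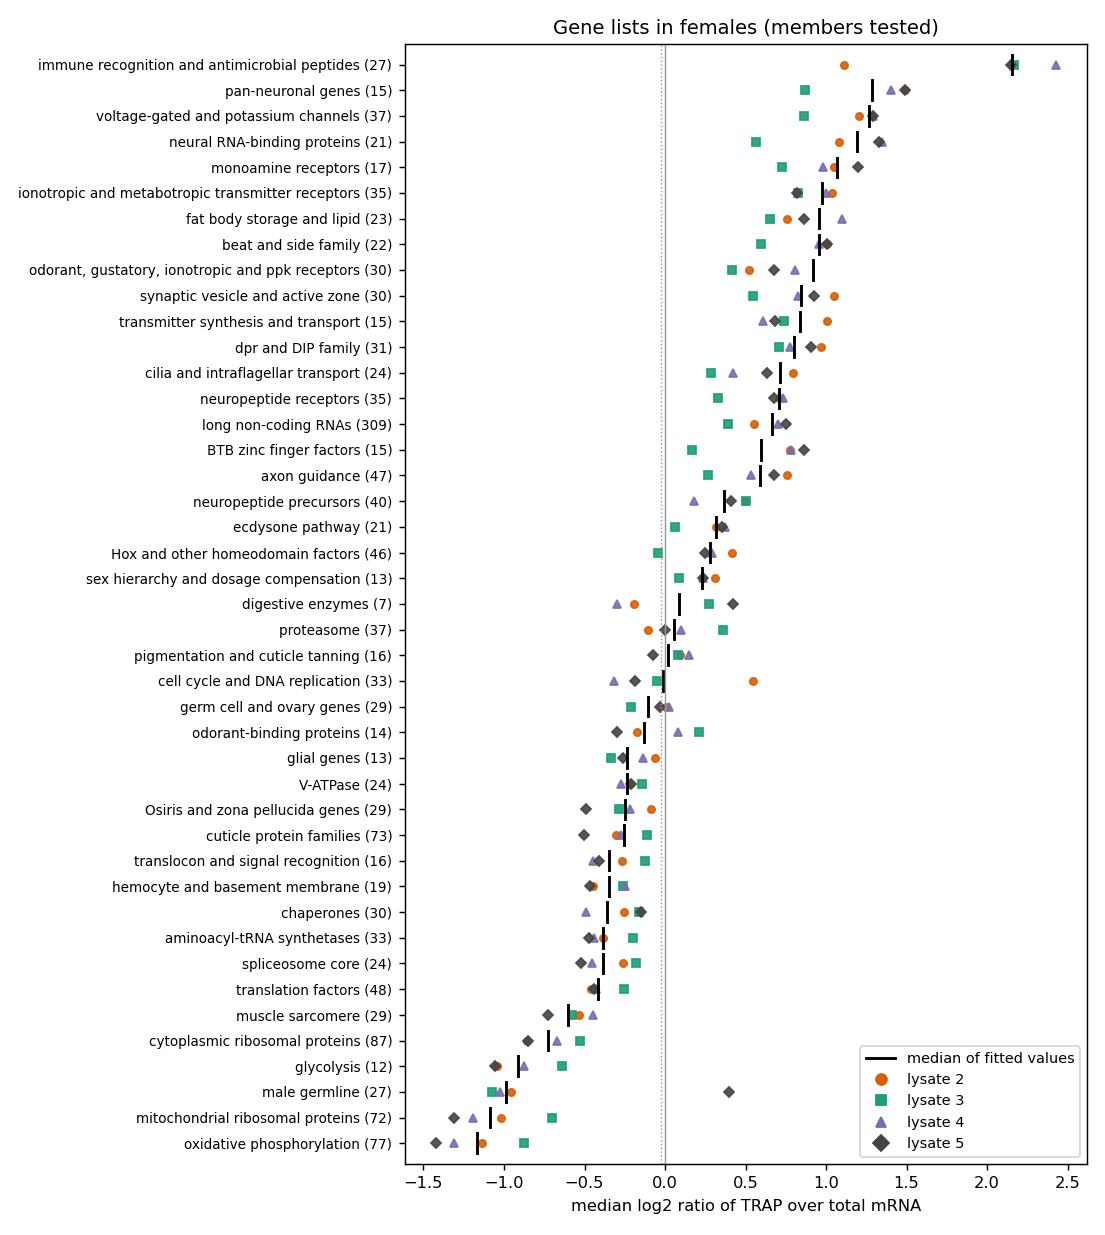
Median log2 ratio of TRAP over total mRNA for 43 gene lists, with the number of tested members in brackets; coloured symbols are the medians of lysates 2 to 5, black bars the median of the fitted values, and the dotted line the median of all genes (−0.03). In all 4 lysates 20 lists were above 0 and 15 below, and lysate 5 departs from the others in the male germline list.

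Reads of long non-coding RNAs were present in TRAP. Of 2388 annotated genes 309 passed the filter, of which 175 were higher and 28 lower, with a median of 0.67. Low genes can pass through TRAP alone, which favours higher calls, and without the filter 404 of 2217 were higher and 37 lower. Their presence in TRAP does not show that they were bound to ribosomes. The most read were lncRNA:noe, at 5040 to 7275 CPM in TRAP and 5629 to 7593 CPM in total mRNA (−0.09, adjusted p = 0.665), and lncRNA:CR34335, at 4735 to 7792 CPM in TRAP and 3071 to 4598 CPM in total mRNA (0.62, SE 0.13). In the sex hierarchy list 5 of 13 genes were higher, beside 28.8% of all genes, and none lower (median 0.23). With the length correction 6 were higher and 3 lower (median 0.05). In the fit of all 18 libraries 4 of 14 were higher and 3 lower. Sxl, the female master gene, had 426, 240, 362 and 305 CPM in TRAP against 150, 140, 111 and 103 CPM in total mRNA (1.39, SE 0.16). lncRNA:roX1, an RNA of the male dosage compensation complex, was the highest member (3.24, SE 0.25), at 255, 58.7, 45.3 and 67.0 CPM in TRAP and 18.6, 12.9, 4.90 and 4.66 CPM in total mRNA, and it overlaps another gene.

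TRAP of lysate 2 differed from the other TRAP libraries in more than fat body genes such as Fbp1, Lsp2 and apolpp. The median ratio of the whole fat body list was lowest in lysate 3 (0.65), with 0.76 in lysate 2. A rule chosen after the values were seen asked for genes at 10 CPM or more in 1 TRAP library and over 3.5 times the highest of the other 3. It took 8 genes in lysate 2, none in lysates 3 and 4, and 1 in lysate 5. The 8 were sca, sv and mira, which act in sensory organ precursors and their asymmetric divisions, the cyclin genes CycA and CycE, DIP-alpha, lncRNA:roX1 and CG10257. CycE had 42.3, 9.13, 6.30 and 11.1 CPM in TRAP against 3.05, 3.76, 3.81 and 2.41 CPM in total mRNA, and sv had 107, 23.8, 19.1 and 25.2 CPM in TRAP against 5.86, 5.22, 4.52 and 5.62 CPM in total mRNA. Total mRNA of lysate 2 was within or close to the range of the other total mRNA libraries for these genes, except for lncRNA:roX1. Without lysate 2, 2828 genes were higher and 2798 lower in TRAP.

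**Figure D4:**
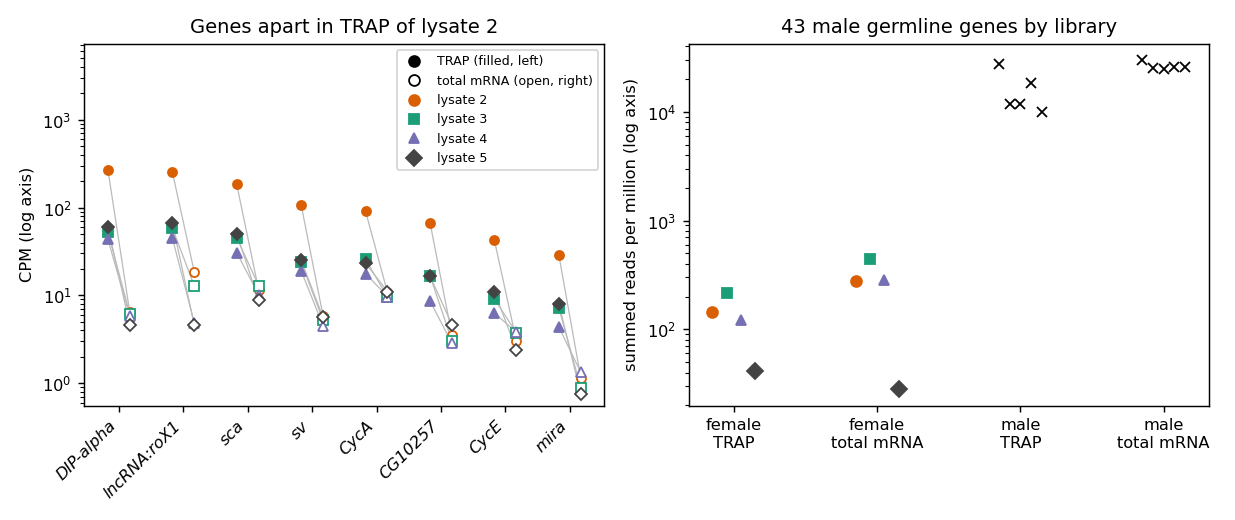
Left, the 8 genes that stand apart in TRAP of lysate 2, in CPM on a log axis, with TRAP filled on the left and total mRNA open on the right. Right, the summed level of 43 male germline genes in each female library (coloured by lysate as on the left) and each male library (crosses), where lysate 5 had 41.7 RPM in TRAP and 28.1 in total mRNA.

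The TRAP ratio rose with the summed exonic length of the gene. Genes under 750 nt had a median log2 fold change of −0.38, with 24.5% higher and 45.6% lower, and genes of 8000 nt and over had a median of 0.61, with 64.8% higher and 8.18% lower. In lysate 3 the median of the longest genes was 0.20, against 0.62 to 0.81 in the other lysates. With only the 3′ record of each gene counted, the medians were −0.38 for the shortest and 0.62 for the longest genes. The median exonic length was 9509 nt in the pan-neuronal list, 1103 nt among neuropeptide precursors and 842 nt in oxidative phosphorylation. Against the median of their own length class, pan-neuronal genes kept a median of 0.92 and genes of oxidative phosphorylation one of −0.93, while axon guidance genes kept 0.21 and the ecdysone pathway −0.06. The part of length in the list results was not tested beyond these values.

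**Figure D5:**
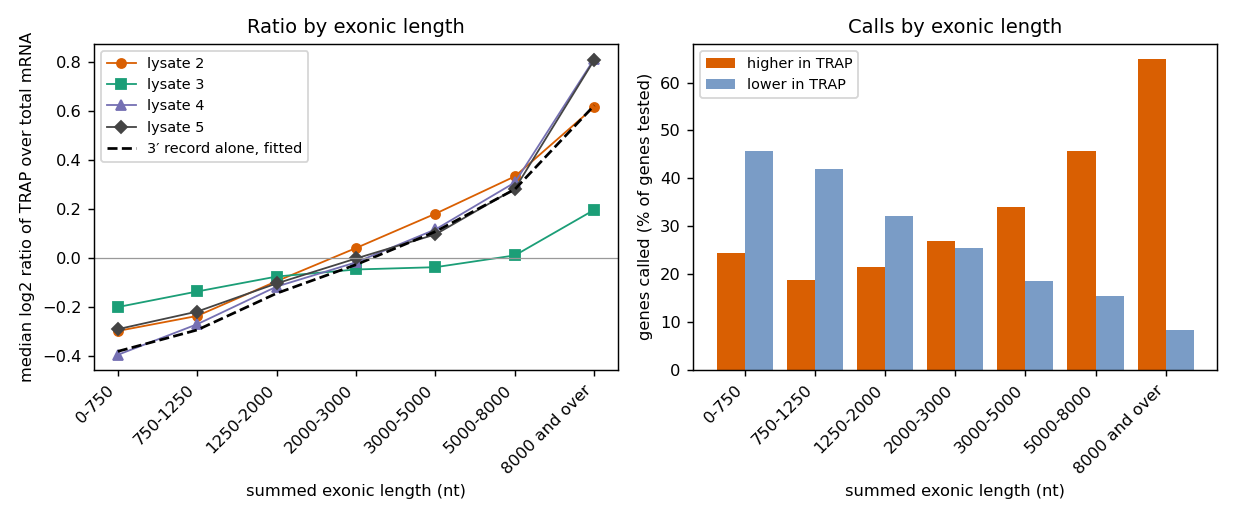
Left, median log2 ratio of TRAP over total mRNA in 7 classes of summed exonic length for each lysate, with the 3′ record alone dashed in black. Right, the percent of tested genes called higher or lower in TRAP in each class, with 24.5% higher and 45.6% lower under 750 nt, and 64.8% higher and 8.18% lower at 8000 nt and over.

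The female ratio was set against the male one in a fit of all 18 libraries with an interaction term. Of 13137 genes, 1004 (7.64%) had a higher TRAP ratio in females and 5496 (41.8%) in males, but this split turned with the scaling, since 1912 genes were higher in females and 613 in males with RLE size factors. The median female minus male difference over the genes described here was −0.50 with TMM and −0.05 with RLE. Against this shift, fru differed by −0.90 (SE 0.23, adjusted p = 0.00636) with TMM and by −0.45 (adjusted p = 0.179) with RLE. Of 12 genes tested, only repo and Osi6 passed under both scalings, at −0.46 and −0.86 with RLE, with a higher ratio in males. Osi6, MtnC and CG34198 were among the 12 because their ratios were the lowest in these same female libraries. That choice favours a negative difference, so their results are no independent test. Likewise CG14118, Nepl5 and AttD were taken for the highest female ratios. For CG14118, Nepl5 and AttD the difference did not pass with either scaling, and with TMM it was −0.30 (SE 0.55), 0.02 (SE 1.19) and 0.07 (SE 0.53).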

How the data were processed

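Ribosome-bound mRNA (TRAP) and total mRNA were measured by RNA-seq in female whole pupae at 48 hr APF, in 4 lysates. The authors aligned reads to the Drosophila genome (dm6) with STAR 2.7.2a and deposited raw counts per exon record, made with featureCounts; the annotation release and strand setting are not given in the sources used here, so reads of overlapping genes cannot be told apart. A deposited table of the whole series was not used.

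The deposited counts were summed per gene over a longest-first set of records that do not overlap one another (69946 of 87508 records, 65.2 to 67.6% of all counts in female libraries). Symbols were found for 17626 genes (99.3%). Genes with at least 1 CPM in 4 of 8 libraries were tested with the edgeR 4.0.16 quasi-likelihood F test in R 4.3.3 after TMM normalization, with lysate as a block and Benjamini-Hochberg adjustment. SE is the log2 fold change over the square root of F, and levels are TMM-normalized CPM. The summed levels of lists are reads per 1e6 gene-level reads (RPM). The biological coefficient of variation was 13.0%.

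The numbers pair libraries of the same lysate. Deviations of same-numbered libraries from their group means correlated at 0.24, 0.45, 0.21 and 0.79. The labels do not say whether lysates came from separate crosses, and p-values measure the spread between these lysates.

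The members and lists were chosen with earlier results of these data known, and each list is described by counts and its median, with no test. Named genes were fru, dsx, RpL10Ab, elav, nSyb, repo and Mhc, the 12 highest and 12 lowest fold changes (adjusted p under 0.05, a group mean of 5 CPM or more, no overlap of libraries, no record overlapping another gene), and in each list the 2 members with the most reads and the highest and lowest. Further list members and the genes apart in lysate 2 were chosen after their values were seen. Scripts were tested on simulated data. Alternatives covered scaling, filters, the block, the tool (DESeq2 1.42.0, the edgeR exact test), which records were summed, length and each lysate left out. Depth limits precision for genes with few reads, and a floor of 3 counts covers counting error only.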

Additional observations from a re-analysis of the deposited data

Results flagged for a closer look

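Of 148 groups of 4 libraries examined, 6 had a library far from the other 3, judged by its gap to the nearest library as a share of the whole range (gap ratio). Chance alone gives this in about 1 in 20 groups. In TRAP of lysate 2, the summed level of the dpr and DIP family was 1414 RPM against 947 to 1008 in the other TRAP libraries (gap ratio 0.870), and Jhe had 101 CPM against 207 to 219 CPM (0.891). In total mRNA of lysate 5, cytoplasmic ribosomal protein genes summed to 208312 RPM against 196518 to 197080 in the other total mRNA libraries (0.952), glycolytic genes to 7346 against 6503 to 6578 (0.912), and Act88F had 3763 CPM against 2597 to 2764 CPM (0.857). In total mRNA of lysate 4, Ilp3 had 3.90 CPM against 3.16 to 3.25 CPM (0.882).

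The female minus male difference in the TRAP ratio passed the edgeR interaction test with TMM for 9 of 12 genes. On the log2 scale it was −0.90 for fru, −0.53 for RpL10Ab, −0.88 for elav, −0.64 for nSyb, −0.90 for repo, −0.80 for Mhc, −1.08 for MtnC, −1.27 for CG34198 and −1.31 for Osi6. The median difference over all genes was −0.50 with TMM and −0.05 with RLE. Of all 13137 genes in the TMM fit, 41.8% passed with a higher ratio in males and 7.64% with a higher ratio in females. With RLE, only repo (−0.46, adjusted p = 0.0343) and Osi6 (−0.86, adjusted p = 0.00301) of the 9 genes passed. MtnC, CG34198 and Osi6 had been picked for the lowest ratios in the same female libraries, which favours a negative difference. Their calls are therefore no independent test.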

How the results depend on the processing

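The labels pair libraries of the same lysate, and without the replicate block 3046 genes were higher and 2824 lower, with 346 lower by at least 2-fold against 567 with it. The count lower by at least 2-fold was 356 with the exact test, 369 with a length correction and 1518 in the fit of all 18 libraries, in which 5301 genes were lower and the median of all genes moved by −0.21. Without the filter, 1912 genes were higher by at least 2-fold. With each lysate left out in turn, 2398 to 3126 genes were higher and 2532 to 2810 lower, 1120 to 1400 and 519 to 665 of them by at least 2-fold. With RLE, the sex difference was higher in females for 1912 genes and in males for 613, a choice made after seeing the data. Reversed values were the ecdysone median (−0.0065 with the length correction), the cuticle median (0.0203 without the filter), the male germline median (0.3957 in lysate 5 alone) and, with only records free of overlap within the gene, RpL10Ab (0.1845), nSyb (−0.0536) and Osi6 (0.7611). For these the cause was not tested. The call of dsx also changed with library totals (0.2552, adjusted p = 0.0404) and without lysate 3 (0.2846, adjusted p = 0.0357), and that of nSyb in the fit of all 18 libraries (0.2274), all by edgeR.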

Other observations

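The remaining gene lists went in both directions or lower in female TRAP, by the edgeR test described above. Of 33 tested genes of the cell cycle and DNA replication 4 were higher and 5 lower (median −0.02), and their medians were 0.55, −0.05, −0.31 and −0.19 in lysates 2 to 5, so that lysate 2 alone was above 0. The 4 higher members were the cyclin genes CycE and CycA (1.61), RnrS, a subunit gene of ribonucleotide reductase, and stg (0.97), the phosphatase gene that starts mitosis. Of 24 spliceosome genes 13 were lower and 2 higher (median −0.39), and SmF, a core Sm protein gene, was the lowest (−1.25). The protein translocation list had 11 of 16 genes lower and none higher (median −0.35), with 7 lower without lysate 4 or without lysate 5, and 7 lower and 2 higher with the length correction. Of 24 tested V-ATPase genes 11 were lower and 3 higher (median −0.23), and 7 were lower without lysate 4.

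Of 16 tested genes of pigmentation and cuticle tanning 6 were higher and 2 lower (median 0.02). Of 37 digestive enzyme genes 7 were tested, with 2 higher and 2 lower. The 2 higher were the maltase genes Mal-A6 (4.69) and Mal-A5 (2.39).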
